A study of Mus musculus with 20 samples.

Results

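The start of *Fbxw4* was used as a viewpoint in capture Hi-C (cHi-C) maps of the *Lbx1*/*Fgf8* locus from embryonic day E11.5 mouse limb buds. In cHi-C, DNA ends that lay near each other in fixed nuclei are ligated, the products from a chosen region are captured, and each sequenced product gives a read pair. The viewpoint consisted of a pair of adjoining 5 kb bins of chromosome 19 (mm9). The start bin, chr19:45730001-45735000, holds the annotated *Fbxw4* start site at 45734802 and the telomeric cut of the *Inv1* inversion, and the upstream bin, chr19:45735001-45740000, holds the 5 kb next to it on the promoter side. In the wild-type map, 777 of 75855 bin pairs with usable bins had the start bin or the upstream bin at 1 end, and in the *Dup* maps 773 of 75078. The members were chosen by position and not by any contact value.

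*Fbxw4* encodes an F-box protein with WD40 repeats, a substrate receptor of SCF ubiquitin ligases. In the mouse Dactylaplasia alleles the gene has a retrotransposon insertion upstream of it or in an intron. Its introns and surroundings hold enhancers that drive *Fgf8* in the apical ectodermal ridge (AER), the signalling epithelium at the rim of the limb bud, so the gene lies among regulatory elements of another gene. Contacts between a promoter and distant DNA occur mostly inside a topologically associating domain (TAD), a stretch of chromatin that folds upon itself, and become rarer with linear distance.

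Wild-type limb buds carried the label c57bl6.J, and all mutants the label G4 ESC, an embryonic stem cell line of hybrid 129/Sv and C57BL/6J origin from which mice were made by aggregation. Strain and genotype can therefore not be told apart. *Dup*, *Inv1* and *Inv2* were CRISPR/Cas9 rearrangements in homozygous state, each with 4 libraries (3 biological and 1 technical replicate), as had the wild-type. Heterozygous *Inv1* had 3 libraries, and heterozygous *Dup* had 1, assigned from its title because another label names an inversion. Fore- and hindlimb buds were pooled, so a contact in few cells and a weaker contact in many cannot be told apart.

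The 20 libraries were merged into 6 maps, 1 per genotype. Replicate spread could thus not be measured and no test was possible, every comparison below is between a pair of maps, and all of them share the wild-type map. Intervals in parentheses are 95% intervals for counting error only. The maps held between 3350758 (heterozygous *Dup*) and 13101700 (*Dup*) read pairs. The start bin was the less covered of the viewpoint bins. It had 4 DpnII sites, where the digest can make a ligatable end, against 17 in the upstream bin. Beyond 5 kb it held 15787 read pairs in the wild-type, 42643 in *Dup*, 41792 in *Inv1*, 30788 in *Inv2*, 9774 in heterozygous *Dup* and 24570 in heterozygous *Inv1*. The upstream bin held 35076, 93563, 60824, 58758, 21479 and 38163 in the same order, so its values are the more precise ones.

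The rearrangements place the *Fbxw4* start differently, as the target sites at their ends show. Each site below was read from the mm9 genome 5′ to 3′ on the strand of the guide, with the PAM, the motif that Cas9 needs beside its target, in capitals. They are shown because they fix which sequence becomes the new neighbour of the *Fbxw4* start.
*Inv1*, telomeric, chr19:45734085-45734107, plus strand: ggtgacaccagtattcctcgAGG
*Inv1*, centromeric, chr19:45611034-45611056, plus strand: ggcctcaatacacctccatgGGG
*Inv2*, centromeric, chr19:45332272-45332294, plus strand: ctgacatttagctgtgatcgGGG
*Dup* and *Inv2*, telomeric, chr19:45792720-45792742, minus strand: ttaaatttctccaagataagAGG

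*Fbxw4* (ENSMUSG00000040913.4) lies from 45652744 to 45734802 on the minus strand and has 9 exons, of which exon 1 spans 45734266 to 45734802. The telomeric *Inv1* cut follows base 45734101 and lies inside the gene between exons 1 and 2, at −701 bp from the start site in plus-strand coordinates. The inversion of 123.1 kb thus separates the start site and exon 1, which stay in place, from exons 2 to 9, which are turned around. Of the start bin, 82% (4101 bases) and all 4 DpnII sites lie on the side that is inverted, and no site lies on the side that stays. The cut, the start site and the first part of the upstream bin share a single DpnII fragment of 1384 bp, from 45733808 to 45735191. In *Inv1* the start bin therefore read out mainly the first part of intron 1 in its new place, and the upstream bin the DNA that stayed next to the start site.

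*Dup* (45251634 to 45792725, 541.1 kb) and *Inv2* (45332289 to 45792725, 460.4 kb) carry the whole gene and both viewpoint bins. In the reference order the *Fbxw4* start site lies 424.5 kb from that of *Lbx1* and 82.6 kb from that of *Fgf8*. In *Dup* a further copy of *Lbx1* follows the centromeric copy of *Fbxw4* on its upstream side, at 116.6 kb, and the distance to *Fgf8* from the nearest copy is kept. *Inv2* brings *Lbx1* to 79.9 kb and moves *Fgf8* to 427.2 kb. In *Inv1* the start site keeps both distances, whereas the middle of the start bin moves to 302.4 kb from *Lbx1* and 204.8 kb from *Fgf8*.

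In the wild-type, the *Fbxw4* start had more contact inside the *Fgf8* domain than inside the *Lbx1* domain. The *Fgf8* domain is the TAD that holds *Fbxw4* and *Fgf8*. Domain ends were placed at local minima of an insulation score, which compares the contact across a position, in windows of 100 kb, with that of the rest of the map. The *Fgf8* domain (45620001 to 45825000) received 55.5% (54.7 to 56.3) of the contact signal of the start bin and 57.0% (56.5 to 57.5) of that of the upstream bin. The *Lbx1* domain (45295001 to 45620000) received 15.96% (15.39 to 16.5) and 15.3% (14.9 to 15.7). With a margin of 25 kb around the viewpoint instead of 5 kb, the *Fgf8* domain received 42.0% and 42.7% and the *Lbx1* domain 20.8% and 20.4%. The profile was asymmetric with respect to distance at the far ends. Beyond the telomeric domain end, contact was 0.672 (0.637 to 0.709) times the distance mean, the mean signal of bin pairs equally far apart, for the start bin and 0.565 (0.545 to 0.586) times for the upstream bin. In the centromeric flank (45055001 to 45250000), which is much farther away, it was 1.56 (1.46 to 1.68) and 1.42 (1.36 to 1.49) times that mean.

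**Figure D1:**
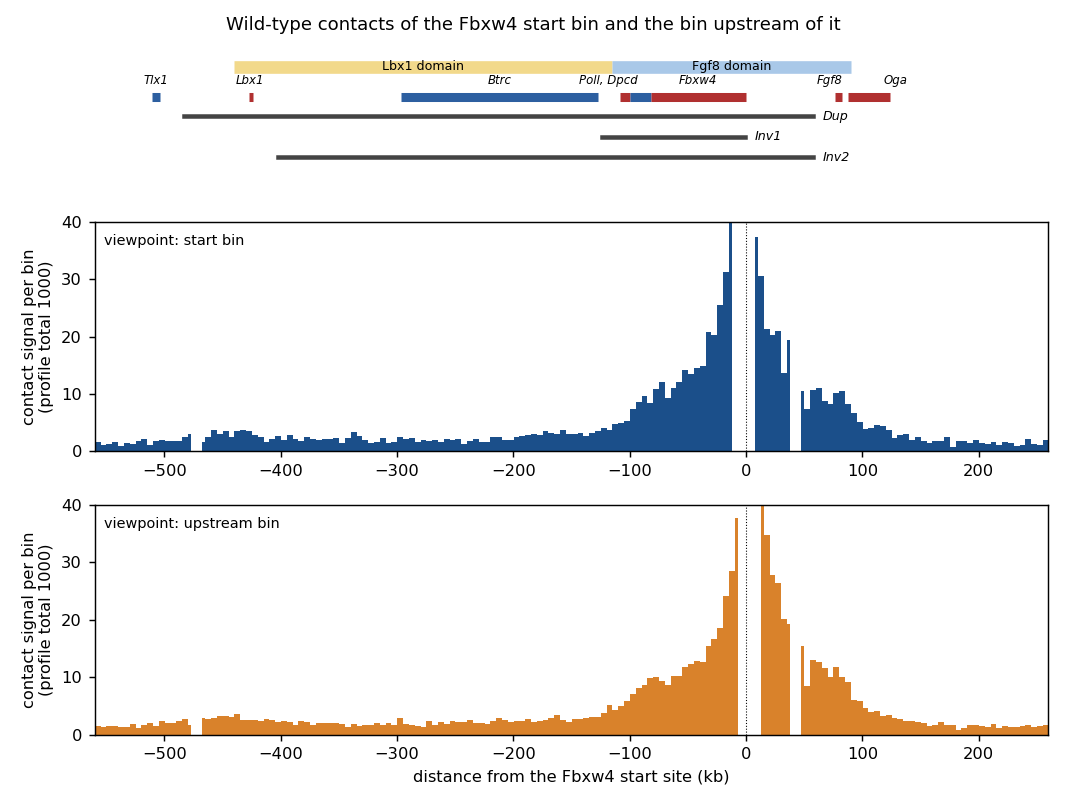
Contact signal of the start bin (blue) and of the upstream bin (orange) in the wild-type map, in bins of 5 kb against the distance from the *Fbxw4* start site in kb, each profile scaled to a total of 1000, with axes cut at 40 and gaps where a bin has no value or lies within 5 kb of the viewpoint. The track shows both domains, genes on the plus (blue) and minus (red) strand and the rearranged intervals. Signal is high around the start site, drops past *Fgf8* and past *Poll*, and has a low rise at the centromeric end of the *Lbx1* domain.

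The most enriched distant contacts of the *Fbxw4* start in the wild-type lay near *Lbx1*, around the centromeric end of the *Lbx1* domain. Among bins over 50 kb away, the start bin had its 3 highest values over the distance mean at 45275001 to 45280000 (2.949, 1.923 to 4.52, 21 read pairs), 45300001 to 45305000 (2.78, 2.15 to 3.59) and 45285001 to 45290000 (2.706, 1.961 to 3.74). The upstream bin had them at 45295001 to 45300000 (2.47, 2.12 to 2.88), 45280001 to 45285000 (2.34, 1.95 to 2.81) and 45285001 to 45290000 (2.27, 1.82 to 2.84). None of these bins holds a gene start, and their intervals overlap, so their order is not resolved.

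Of the gene starts named here, *Lbx1*, a homeobox gene needed by muscle precursors on their way into the limb, had the highest wild-type contact over the distance mean, 2.14 (1.81 to 2.54) from the start bin and 1.64 (1.45 to 1.85) from the upstream bin, over the 3 bins around its start. *Fgf8*, which encodes the growth factor made in the AER, had 1.55 (1.43 to 1.69) and 1.43 (1.36 to 1.51), and *Npm3*, a nucleoplasmin family gene beside it, with 1.43 (1.31 to 1.57) and 1.22 (1.15 to 1.30). The divergent pair *Poll*, which encodes DNA polymerase lambda, and *Dpcd*, whose starts share a bin at the border between the domains, had 1.25 (1.14 to 1.38) and 1.185 (1.11 to 1.26). *Btrc*, which encodes another F-box protein and fills much of the *Lbx1* domain, had 1.03 (0.821 to 1.28) and 0.947 (0.816 to 1.1), near the mean of its distance. *Oga*, which encodes O-GlcNAcase and starts beyond the telomeric domain end, lay below it with 0.783 (0.675 to 0.909) and 0.632 (0.567 to 0.704). Of the far centromeric genes, the homeobox gene *Tlx1* had 1.58 (1.28 to 1.94) and 1.49 (1.29 to 1.73), *Twnk*, which encodes the mitochondrial helicase, 1.58 (1.2 to 2.1) and 1.11 (0.896 to 1.37), and *Slf2* 1.21 (0.858 to 1.71) and 0.623 (0.465 to 0.835). The *Slf2* values rest on 34 and 47 read pairs. The intervals of *Lbx1* overlap with those of *Tlx1* from either bin, with that of *Twnk* from the start bin and with that of *Fgf8* from the upstream bin, so *Lbx1* is not set apart from them there.

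The wild-type profile of the start bin resembled that of *Fgf8* more than that of any other of 29 bins with gene starts. With distance removed (log2 of signal over the distance mean, bins at least 50 kb from both), Pearson's r was 0.64 with the *Fgf8* bin over 353 bins, 0.63 with the *Npm3* bin and 0.49 with the *Poll* and *Dpcd* bin. The upstream bin ranked the same bins first, with r of 0.72, 0.71 and 0.56. With the *Lbx1* bin the start bin had an r of −0.04. These points share a map and its bin factors, and neighbouring bins are not independent, so the values are a description.

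Across the 6 maps, contact with *Fgf8* separated the viewpoint bins in both *Inv1* maps, where it was lower than in the wild-type from the start bin and higher from the upstream bin. In *Dup*, heterozygous *Dup* and *Inv2* the share was below that of the wild-type from either bin. The *Inv1* start bin shares include a strong signal at the new joints, which is described with *Inv1*. The 3 bins around the *Fgf8* start took 2.91% (2.66 to 3.18) of the start bin profile in the wild-type, 2.46% (2.32 to 2.61) in *Dup*, 2.44% (2.16 to 2.77) in heterozygous *Dup*, 1.71% (1.55 to 1.88) in heterozygous *Inv1*, 0.847% (0.751 to 0.957) in *Inv2* and 0.695% (0.621 to 0.781) in *Inv1*. In this order the intervals of heterozygous *Dup* overlap with those of *Dup* and of the wild-type, and those of *Inv2* and *Inv1* overlap with each other. For the upstream bin the order was heterozygous *Inv1* with 3.61% (3.43 to 3.80), *Inv1* with 3.55% (3.41 to 3.703), the wild-type with 3.10% (2.92 to 3.29), *Dup* with 2.72% (2.62 to 2.83), heterozygous *Dup* with 2.25% (2.06 to 2.46) and *Inv2* with 0.817% (0.747 to 0.893). The homozygous and heterozygous *Inv1* maps overlap here, and the other neighbours do not.

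Contact with *Lbx1* was highest in *Inv2* from either bin. The 3 bins around the *Lbx1* start took 2.29% (2.13 to 2.46) of the start bin profile in *Inv2*, 1.06% (0.965 to 1.16) in *Dup*, 1.06% (0.870 to 1.28) in heterozygous *Dup*, 0.903% (0.770 to 1.07) in the wild-type, 0.804% (0.702 to 0.926) in heterozygous *Inv1* and 0.779% (0.7001 to 0.869) in *Inv1*. Below *Inv2*, each map overlaps with its neighbours in this order. The upstream bin had 2.55% (2.43 to 2.68) in *Inv2*, 1.14% (1.06 to 1.23) in *Inv1*, 1.03% (0.933 to 1.14) in heterozygous *Inv1*, 1.00% (0.943 to 1.07) in *Dup*, 0.972% (0.8503 to 1.11) in heterozygous *Dup* and 0.7497% (0.665 to 0.846) in the wild-type. The wild-type was the lowest of the 6 maps here and did not overlap with any mutant, and the 4 maps between it and *Inv2* overlap with their neighbours.

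**Figure D2:**
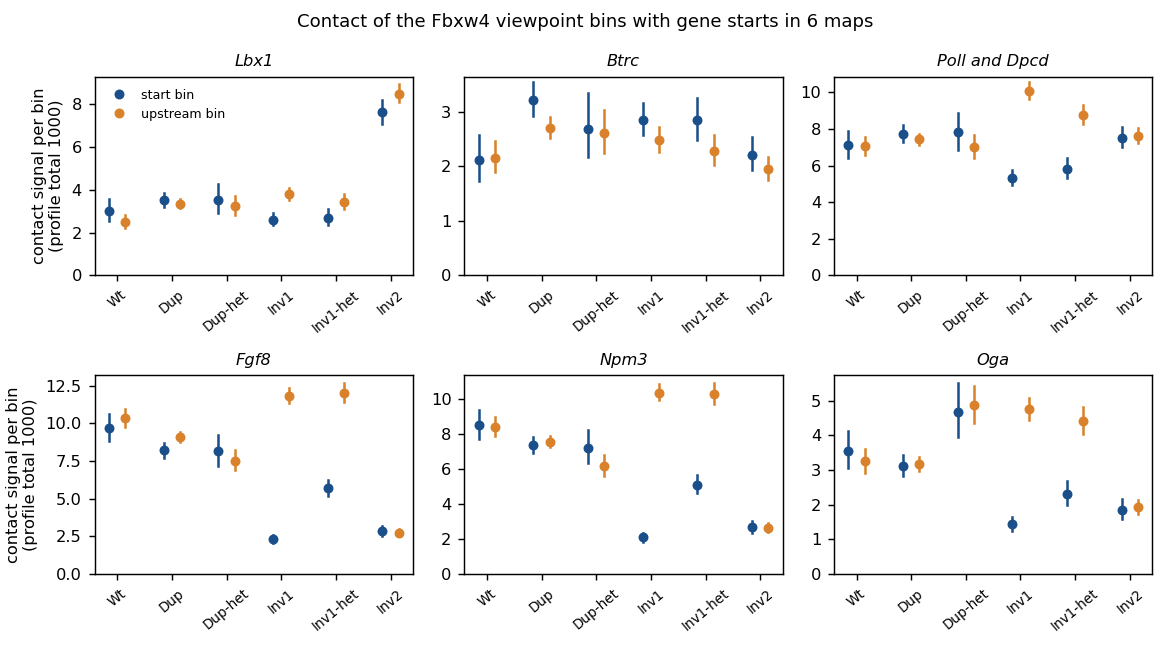
Contact signal per bin (profile total 1000) of the start bin (blue) and the upstream bin (orange) with the 3 bins around each gene start in the 6 maps, with 95% counting intervals as bars. At *Fgf8* the start bin goes from 9.70 in the wild-type to 2.32 in *Inv1*, while the upstream bin is at 11.8 in *Inv1*, and at *Lbx1* both bins are highest in *Inv2* (7.63 and 8.50).

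For ratios, a mutant map and that of the wild-type were brought to equal mean signal at each distance outside the rearranged interval, and every bin had the same total. A predicted ratio, where given, is the one expected if only linear distance in the new order mattered. It was computed from the wild-type decline of signal with distance, summed over the copies in *Dup*, and likewise set to equal bin totals. The prediction assumes a wild-type level at the distance mean. Where the wild-type level lay above that mean, an observed ratio below the prediction need not mean less contact than usual at the new distance. A bin pair was called when its signal was at least 1.5-fold higher or lower than in the wild-type and it held at least 20 read pairs over both maps.

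In *Dup*, the *Fbxw4* start gained contact along the *Lbx1* domain, most of all next to the new joint, and, with equal bin totals, lost a little inside the *Fgf8* domain. Mean signal per bin pair with the *Lbx1* domain was 19.81 against 15.01 in the wild-type for the start bin, a ratio of 1.32 (1.26 to 1.38), and 18.2 against 13.0 for the upstream bin, a ratio of 1.39 (1.35 to 1.44). Distance predicted 1.42 and 1.44. These ratios set the total of each bin equal and so remove the copy number, and they depend on that step. In the LOIC map as deposited, which keeps the copy number, they were 2.99 and 3.13, and in read pairs without balancing 3.13 and 3.13.

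The gain in *Dup* was not even along the new neighbourhood. Between the *Dup* cut and the *Lbx1* domain (45255001 to 45295000), which in the second copy follows the *Fbxw4* upstream side directly, the ratios were 2.13 (1.77 to 2.58) and 2.31 (2.05 to 2.61), with 3.10 and 3.24 predicted. In the *Lbx1* stretch (45295001 to 45330000) they were 1.34 (1.187 to 1.51) and 1.5 (1.38 to 1.63), with 2.41 and 2.48 predicted. Farther on, in the *Btrc* stretch (45335001 to 45610000), they were 1.32 (1.25 to 1.39) and 1.402 (1.35 to 1.45) and close to the predicted 1.37 and 1.38. Thus the observed ratio stood below the prediction on both sides of the centromeric end of the *Lbx1* domain and was close to it in *Btrc*. The prediction leaves out the wild-type level there. From the start bin it was 2.29 times the distance mean next to the *Dup* cut, 2.07 in the *Lbx1* stretch and 0.908 in the *Btrc* stretch.

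At single genes in *Dup*, the *Lbx1* start was contacted 1.21 (1.00 to 1.47) and 1.45 (1.26 to 1.66) times as often, and the *Btrc* start 1.57 (1.23 to 2.00) and 1.35 (1.14 to 1.59) times. Distance predicted 2.41 and 2.47 for *Lbx1* and 1.495 and 1.503 for *Btrc*. In the LOIC map the observed ratios were 2.78 and 3.28 for *Lbx1* and 3.53 and 3.02 for *Btrc*. The *Fgf8* start, whose distance to the nearest copy does not change, had ratios of 0.841 (0.758 to 0.932) and 0.907 (0.849 to 0.969), with 0.769 and 0.766 predicted. This direction holds only with equal bin totals, since the *Fgf8* ratios were 1.14 and 1.22 in the LOIC map and 1.34 and 1.36 in unbalanced read pairs. The *Fbxw4* gene body (45655001 to 45705000) had 0.891 (0.845 to 0.939) and 0.952 (0.917 to 0.988), and *Oga* 0.879 (0.724 to 1.07) and 1.01 (0.884 to 1.16).

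Of 314 bin pairs of the start bin, 77 (24.5%) were called higher and 8 lower in *Dup*, against 16.7% higher and 4.18% lower over all bin pairs of the map. For the upstream bin, 105 of 381 (27.6%) were higher and 1 was lower. All 7 bins measured between the *Dup* cut and the *Lbx1* domain were called higher from either bin. The extreme bins of *Dup* were distant and thinly covered. The highest ratios of the start bin, at 44955001 (5.27, 1.84 to 15.1) and 46175001 (4.43, 1.34 to 14.7), rest on 4 and 3 wild-type read pairs. The lowest, at 46195001 (0.466, 0.198 to 1.098) and 44750001 (0.511, 0.224 to 1.17), have intervals that include 1. The highest of the upstream bin, at 44560001 (6.12, 1.43 to 26.3) and 44650001 (5.21, 1.56 to 17.4), and the lowest, at 46200001 (0.629, 0.327 to 1.21) and 44960001 (0.676, 0.3003 to 1.52), are as uncertain.

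**Figure D3:**
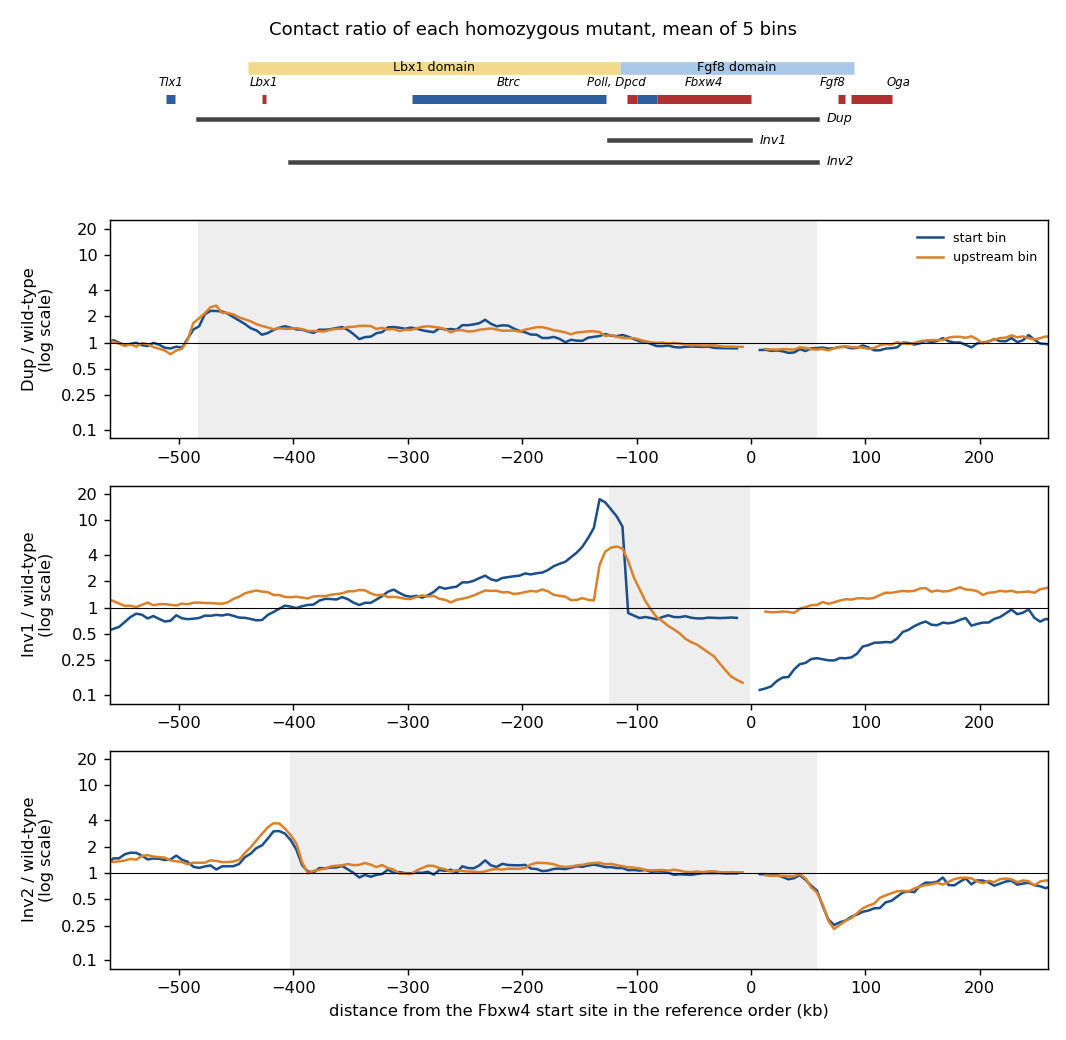
Contact ratio of *Dup*, *Inv1* and *Inv2* to the wild-type on a log axis, as a running mean of 5 bins, for the start bin (blue) and the upstream bin (orange), against the distance from the *Fbxw4* start site in the reference order in kb. Grey marks the rearranged interval. Both bins run together in *Dup* and *Inv2* and part in *Inv1*, where the start bin drops on the telomeric side and the upstream bin inside the inversion.

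In *Inv1*, both viewpoint bins, which adjoin in the wild-type, went to opposite sides. The start bin was contacted more by the *Lbx1* domain and much less by its former upstream side, whereas the upstream bin lost the *Fbxw4* gene body and gained the *Poll* and *Dpcd* region. The correlation between the profiles of both bins, with distance removed, was 0.63 in the wild-type over 368 bins, 0.84 in *Dup*, 0.90 in *Inv2* and 0.44 in *Inv1* over 369 bins. It was 0.54 in heterozygous *Inv1* and 0.51 in heterozygous *Dup*, which has no cut between the bins and the fewest read pairs, so a low value is not particular to *Inv1*. In *Inv1* the start bin was more like the next bin inside the gene (45725001 to 45730000), with an r of 0.85.

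A large share of the *Inv1* start bin profile came from a single bin pair, which holds both new joints. The bin 45610001 to 45615000, which holds the centromeric cut, shared 69 read pairs with the start bin in the wild-type and 8718 in *Inv1*, or 20.9% (20.5 to 21.3) of its read pairs beyond 5 kb. Its ratio was 43.6 (34.4 to 55.2), and 8.13 was predicted. The next bin, 45605001 to 45610000, had 12.7 (9.79 to 16.4) with 11.6 predicted. The *Inv1* cuts split both bins of this pair, so DNA of both bins is now contiguous at the joints. Read pairs from DNA that runs across a joint were not told apart from ligated contacts, nor were the joints from each other. The ratio is therefore not a measure of contact alone. Because each bin total is set equal, this bin pair lowers all other ratios of the start bin. Values without it are given where they differ, and that alternative was added after its size was seen.

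With the *Lbx1* domain, the *Inv1* start bin had a mean signal of 40.05 against 11.95, a ratio of 3.35 (3.21 to 3.50) with 2.65 predicted. Without the bin at the joint the ratio was 2.81 (2.68 to 2.93), and in unbalanced read pairs 5.45. Most of the gain lay in the bin at the joint, with a signal of 837.9 against 19.2, and in the *Btrc* stretch. That stretch had a ratio of 2.66 (2.53 to 2.79) with 2.56 predicted, or 3.20 (3.05 to 3.35) without the joint. In that stretch 35 of 55 bins were called higher, where 9.97% of all bin pairs of the map were. The *Btrc* start had a ratio of 1.36 (1.06 to 1.75), or 1.64 (1.27 to 2.11) without the joint and 2.13 in unbalanced read pairs, with 1.55 predicted.

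From the *Inv1* start bin, the *Lbx1* start did not show the gain of the *Lbx1* domain. Its signal was 12.2 against 15.4, a ratio of 0.791 (0.648 to 0.966) where 1.38 was predicted, and 0.951 (0.779 to 1.16) without the joint. In unbalanced read pairs the ratio was 1.38, so the direction of this value depends on the balancing. For *Poll* and *Dpcd* the ratio was 0.776 (0.689 to 0.874), 0.933 (0.829 to 1.05) without the joint and 1.18 in unbalanced read pairs. Neither the *Lbx1* nor the *Poll* and *Dpcd* value of the start bin is therefore a firm change. The next bin inside the gene, wholly inverted, did gain at *Lbx1*, with a ratio of 1.255 (1.061 to 1.485) and 1.44 predicted. For *Poll* and *Dpcd* that bin had 0.831 (0.761 to 0.907).

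On the telomeric side the *Inv1* start bin had less contact than in the wild-type. Up to the domain end its ratios lay below those predicted, by a margin that depends on how the prediction splits the bin. The stretch upstream of *Fbxw4* (45740001 to 45790000) had a mean signal of 14.3 against 92.3, a ratio of 0.155 (0.143 to 0.168) with 0.371 predicted, and all 9 measured bins were called lower, where 8.53% of all bin pairs were. In the *Fgf8* stretch (45795001 to 45825000) the ratio was 0.254 (0.231 to 0.279) with 0.553 predicted, and all 6 bins were lower. The start of *Fgf8* had 0.246 (0.216 to 0.280), that of *Npm3* 0.252 (0.219 to 0.290) and that of *Oga* 0.419 (0.337 to 0.522). Without the joint these became 0.296 for *Fgf8* and 0.505 for *Oga*, and in unbalanced read pairs 0.416 and 0.587. In the telomeric flank the ratio was 0.577 (0.539 to 0.619) with 0.668 predicted, but 0.695 (0.648 to 0.745) without the joint, and the *Oga* interval without the joint, 0.406 to 0.628, includes the predicted 0.623. The predictions weight the bin by the 82% of its bases that are inverted, although none of its DpnII sites stays behind. The next bin inside the gene, wholly inverted, lay nearer its predictions. It had 0.216 (0.201 to 0.231) with 0.265 predicted in the upstream stretch, and 0.344 (0.319 to 0.371) with 0.489 predicted in the *Fgf8* stretch. For the start bin, the gene body kept 0.766 (0.724 to 0.809) and the beginning of the gene (45710001 to 45730000) 0.765 (0.713 to 0.821), and without the joint both were 0.9209 and 0.92.

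The upstream bin kept its place in *Inv1*, and the sequence next to it changed from the beginning of *Fbxw4* to the *Poll* and *Dpcd* region. Its ratio with the beginning of *Fbxw4* was 0.1498 (0.138 to 0.162) with 0.177 predicted, and with the rest of the gene body 0.438 (0.416 to 0.460) with 0.803 predicted. All 4 and all 10 bins of these stretches were called lower, where 8.53% of all bin pairs of the map were. With the *Poll* and *Dpcd* stretch (45615001 to 45650000), now next to it, the ratio was 2.48 (2.35 to 2.63) with 4.16 predicted.

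Beyond the inversion no distance of the upstream bin changes and a ratio of 0.9988 was predicted, but most stretches lay above it. The *Lbx1* stretch had 1.47 (1.35 to 1.61), the *Btrc* stretch 1.38 (1.33 to 1.43), the *Fgf8* stretch 1.18 (1.13 to 1.24) and the 200 kb beyond the telomeric domain end 1.49 (1.43 to 1.56). The start of *Lbx1* had 1.45 (1.26 to 1.67), that of *Fgf8* 1.24 (1.16 to 1.32) and that of *Oga* 1.59 (1.401 to 1.81). The upstream stretch, with 0.914 (0.882 to 0.948), lay below, and the centromeric flank had 1.06 (0.9991 to 1.12). Why most ratios lay above the prediction, which also sets bin totals equal, was not tested. Unbalanced read pairs of the upstream bin per 1000000 of the map were 5650 in *Inv1* and 5050 in the wild-type. Without the joint they were 5442 and 5031. Unbalanced ratios were 1.69 for the *Lbx1* domain (1.75 balanced, 1.62 without the joint) and 1.34 for *Fgf8*.

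With the joint included, the difference between the bins in *Inv1* was larger than counting error for every stretch. Without the joint, the intervals of both bins overlapped between the *Dup* cut and the *Lbx1* domain, with ratios of 1.017 (0.8195 to 1.262) and 1.265 (1.105 to 1.448). The quotients below include the joint. The ratio of the start bin divided by that of the upstream bin was 1.92 (1.82 to 2.02) for the *Lbx1* domain, 0.544 (0.466 to 0.635) for the *Lbx1* stretch, 0.169 (0.155 to 0.186) for the upstream stretch and 5.11 (4.59 to 5.69) for the beginning of *Fbxw4*. At the *Btrc* start it was 1.12 (0.822 to 1.53), an interval that includes 1. In *Dup* the same quotient was 0.948 (0.897 to 1.00) for the *Lbx1* domain and in *Inv2* 0.908 (0.857 to 0.961).

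In the *Inv1* map, 45 of 324 bin pairs of the start bin (13.9%) were called higher and 122 (37.7%) lower. Without the joint these were 60 and 82 of 323. For the upstream bin, 91 of 380 (23.9%) were higher and 33 (8.68%) lower. Over all bin pairs of the map 9.97% were higher and 8.53% lower, so the share called lower by the upstream bin is near this background. The lowest ratios of the start bin were at 45740001 to 45745000 (0.0935, 0.0793 to 0.110) and 45745001 to 45750000 (0.114, 0.0908 to 0.144). Those of the upstream bin were at 45725001 to 45730000 (0.122, 0.106 to 0.139) and 45720001 to 45725000 (0.1468, 0.121 to 0.178). Its highest were at 45610001 to 45615000 (8.87, 7.51 to 10.5) and 45615001 to 45620000 (6.63, 5.45 to 8.08). All of them lie close to a cut.

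**Figure D4:**
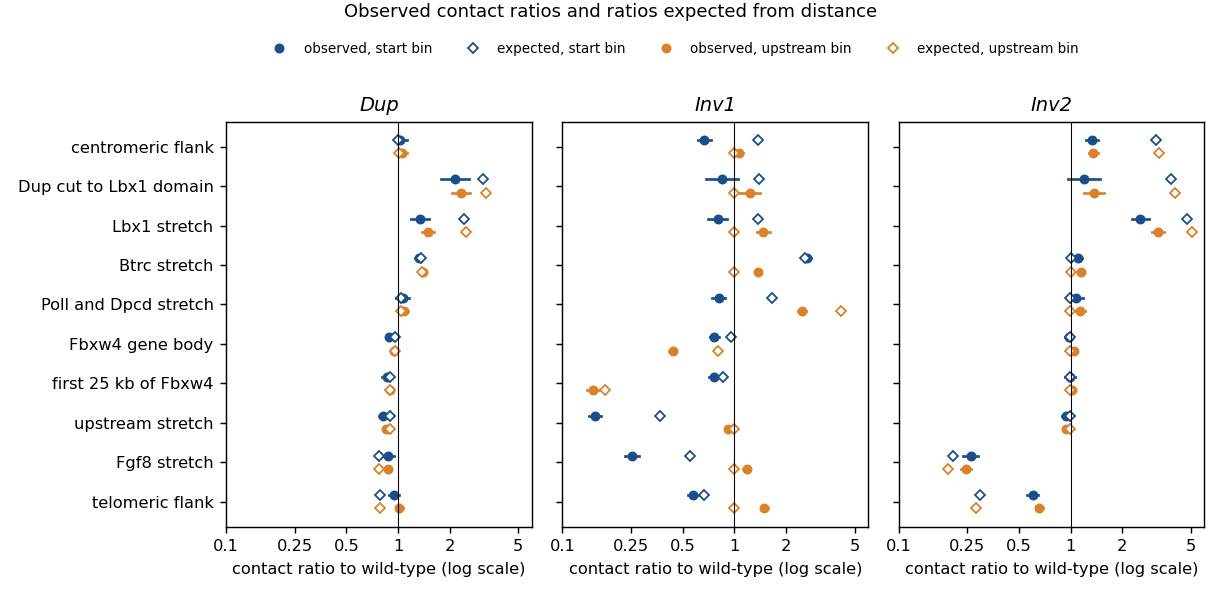
Observed contact ratio to the wild-type (filled circles, with 95% counting intervals) and the ratio predicted from distance in the new order (open diamonds) for the start bin (blue) and the upstream bin (orange), by stretch from centromeric to telomeric, on a log axis. In *Dup* and *Inv2* the circles of the *Lbx1* stretch lie left of the diamonds, and in *Inv1* so do those of the start bin in the upstream and *Fgf8* stretches.

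In *Inv2*, the *Fbxw4* start had less contact with *Fgf8* and more with *Lbx1*, and both viewpoint bins moved in the same direction. Signal with the *Lbx1* start was 43.2 against 18.6 from the start bin and 45.7 against 13.9 from the upstream bin, ratios of 2.32 (1.93 to 2.79) and 3.29 (2.89 to 3.76), with 4.68 and 5.01 predicted. The start bin ratio was 0.706 (0.563 to 0.884) times that of the upstream bin. Signal with the *Fgf8* start was 16.4 against 56.9 and 15 against 54.9, ratios of 0.289 (0.253 to 0.330) and 0.273 (0.249 to 0.299), with 0.220 and 0.206 predicted. Both shifts were thus smaller than distance predicted. The prediction does not take in that wild-type contact with *Lbx1* was already 2.14 and 1.64 times the distance mean, and that with *Fgf8* 1.55 and 1.43 times. For *Npm3* the ratios were 0.311 (0.270 to 0.358) and 0.326 (0.295 to 0.360), and for *Oga* 0.529 (0.425 to 0.658) and 0.626 (0.536 to 0.731), with 0.268 and 0.257 predicted.

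The *Inv2* gain near *Lbx1* was smaller past the centromeric end of the *Lbx1* domain. In the *Lbx1* stretch the ratios were 2.54 (2.26 to 2.86) and 3.22 (2.97 to 3.48), and all 7 bins were called higher from either bin, where 12.5% of all bin pairs were. In the adjoining 40 kb, up to the *Dup* cut, they were 1.20 (0.967 to 1.48) and 1.37 (1.20 to 1.57), although 3.84 and 4.05 were predicted. In the centromeric flank they were 1.33 (1.23 to 1.45) and 1.36 (1.28 to 1.44), with 3.14 and 3.26 predicted, and at *Tlx1* 1.43 (1.13 to 1.82) and 1.48 (1.25 to 1.76). On the other side of the locus, the telomeric flank had 0.6003 (0.558 to 0.646) and 0.658 (0.625 to 0.692), above the predicted 0.295 and 0.282.

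Inside the inverted interval of *Inv2*, where relative distances are kept, ratios stayed near 1. They were 0.976 (0.923 to 1.03) and 1.05 (1.01 to 1.09) for the *Fbxw4* gene body, 0.936 (0.888 to 0.986) and 0.941 (0.909 to 0.975) for the upstream stretch and 1.11 (1.05 to 1.17) and 1.15 (1.11 to 1.20) for the *Btrc* stretch. The *Btrc* start had 1.02 (0.777 to 1.33) and 0.927 (0.768 to 1.12). Contact with the *Lbx1* domain as a whole was 1.31 (1.25 to 1.37) and 1.44 (1.395 to 1.49) times that of the wild-type.

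In *Inv2*, 57 of 333 bin pairs of the start bin (17.1%) were called higher and 48 (14.4%) lower, and 58 of 381 (15.2%) and 38 (9.97%) for the upstream bin, beside 12.5% and 10.1% over the map. The shares called lower by the upstream bin are at this background. The highest ratios of the start bin were at 45320001 to 45325000 (4.52, 3.23 to 6.31) and 45325001 to 45330000 (4.46, 3.06 to 6.49). The highest of the upstream bin were at 45325001 to 45330000 (4.65, 3.67 to 5.87) and, on 3 wild-type read pairs, at 44650001 (4.33, 1.31 to 14.3). The lowest lay at 45795001 (0.218, 0.174 to 0.274) and 45805001 (0.232, 0.168 to 0.322) for the start bin and at 45795001 (0.206, 0.177 to 0.241) and 45800001 (0.221, 0.188 to 0.259) for the upstream bin. Apart from 44650001 these bins lie near the *Inv2* cuts.

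Heterozygous *Inv1* limb buds gave values between those of the wild-type and the homozygous map for most stretches, near an equal mixture of both. From the start bin, several intervals lay wholly below the mixture. They were those of the upstream and *Fgf8* stretches, the gene body (0.7555 to 0.8516 beside 0.8828) and the telomeric flank (0.6772 to 0.7836 beside 0.7887), among others. The start bin shared 3321 read pairs, 13.5% (13.1 to 14.0), with the bin at the joint. Its ratio with the *Lbx1* domain was 2.21 (2.11 to 2.31) and that of the mixture 2.18. Without the joint the ratio was 1.79 (1.71 to 1.88), beside 2.81 in the homozygous map, and no mixture was computed. With *Fgf8* the ratio was 0.554 (0.493 to 0.621) beside a mixture of 0.623 (0.884 in unbalanced read pairs), and with the upstream stretch 0.526 (0.493 to 0.561) beside 0.578. For the upstream bin, the beginning of *Fbxw4* had 0.584 (0.551 to 0.618) beside 0.575, and the *Poll* and *Dpcd* stretch 1.64 (1.54 to 1.74) beside 1.74. The *Fgf8* ratio of the upstream bin, 1.17 (1.09 to 1.25), and that of the *Lbx1* start, 1.35 (1.15 to 1.57), were above 1 as in the homozygous map. Called higher and lower were 29 and 61 of 276 bin pairs of the start bin and 47 and 35 of 365 of the upstream bin, beside 8.44% and 8.19% over the map.

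With equal bin totals, heterozygous *Dup* had *Lbx1* domain ratios close to those of the homozygous map and departed from it on the telomeric side. The *Lbx1* domain ratios were 1.31 (1.23 to 1.39) and 1.34 (1.28 to 1.39), where the homozygous map had 1.32 and 1.39 and an equal mixture 1.16 and 1.20. The closeness does not hold in the other scalings. In the LOIC maps as deposited the ratios were 2.14 and 2.18, below the homozygous 2.99 and 3.13, and in unbalanced read pairs 2.51 and 2.51, below 3.13 and 3.13. For the *Fgf8* stretch they were 0.788 (0.692 to 0.898) and 0.774 (0.713 to 0.841), beside 0.879 and 0.869 in the homozygous map and 0.939 and 0.934 for the mixture. The start bin interval includes the homozygous value. In the telomeric flank they were 1.23 (1.13 to 1.34) and 1.37 (1.29 to 1.45) beside 0.948 and 1.02 in the homozygous map, and at *Oga* 1.37 (1.09 to 1.73) and 1.58 (1.35 to 1.85) beside 0.879 and 1.01. This map came from 1 library with the fewest read pairs, and the part of that in the difference was not tested. Of the bin pairs tested, 50 of 222 and 88 of 336 were called higher and 9 and 14 lower, beside 14.5% and 8.73% over the map.

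**Figure D5:**
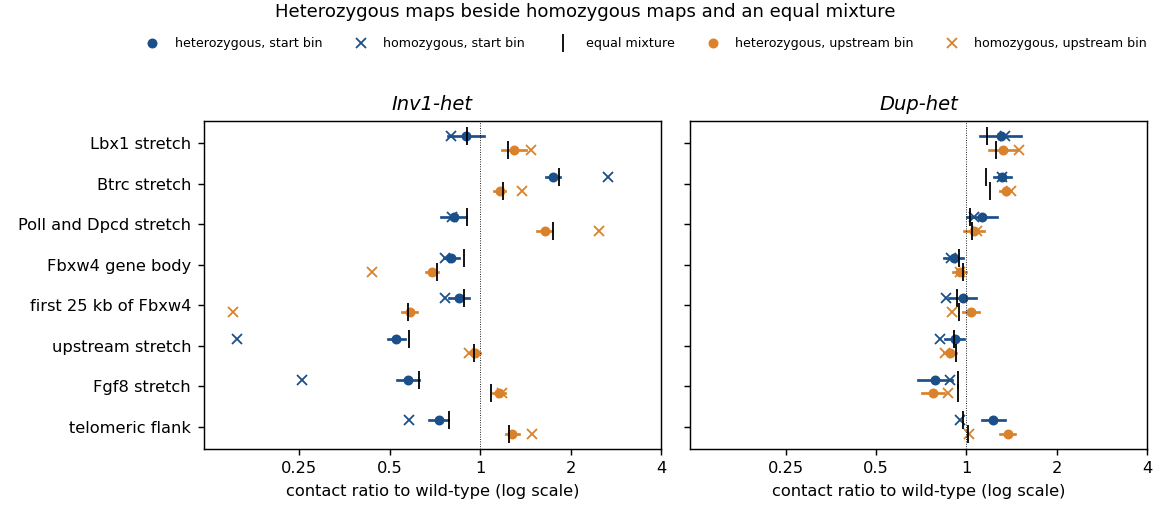
Contact ratio to the wild-type in the heterozygous maps (circles, with 95% counting intervals), in the homozygous maps (crosses) and for an equal mixture of wild-type and homozygous signal (vertical marks), for the start bin (blue) and the upstream bin (orange), on a log axis. Heterozygous *Inv1* lies near the marks, with its start bin circles slightly to their left. Heterozygous *Dup* lies to the right of the marks in the telomeric flank and to their left in the *Fgf8* stretch.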

How the data were processed

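The authors ran HiCUP against mm9, with Bowtie2 2.4.2 as the aligner, to map and filter read pairs and remove duplicates. They joined the replicates, kept read pairs of mapping quality 30 or more and binned them at 5 kb with Juicer tools 1.19.02. The deposited values are contact signal, balanced by the authors with Knight-Ruiz (KR) normalization or, for both *Dup* maps, with LOIC, a correction that leaves copy-number differences in place. For the heterozygous *Dup* map, the sources used here do not state the copy number. Subtraction maps hold the authors' own comparison and were not used.

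The tools were numpy 2.4.6 and scipy 1.17.1 under Python 3.11.15, with matplotlib 3.10.9 for plots. Bin factors were solved from the signal, and dividing by them gave whole read pairs for 100% of values within 0.01. Ratios came from maps rebalanced to equal bin totals and scaled jointly at each distance to a total of 1000000. Ratio intervals span 1.96 standard errors of the log ratio, and shares have Wilson intervals. Duplicates were removed by the authors, but read pairs without molecular identifiers need not all be independent molecules, so both cover counting error only. Profiles leave out 5 kb on either side of the viewpoint. Flanks span up to 200 kb. Scripts were tested on simulated data, in which start bin ratios set to 0.5, 1.5 or 2 came back nearer to 1. A ratio set to 2 was found as 1.77 (*Dup*), 1.79 (*Inv1*) and 1.75 (*Inv2*). A ratio set to 0.5 was found as 0.532, 0.516 and 0.511. A ratio set to 1 was found as 1.05 (*Dup*), 1 (*Inv1*) and 0.981 (*Inv2*). The counting intervals do not cover these shifts.

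Members, regions and gene lists were chosen with earlier results of these data known. Named genes are those of both domains and their neighbours, the 3 gene start bins of most similar profile, the 3 highest wild-type bins and the 2 highest and 2 lowest ratios per homozygous mutant. Alternatives were a single scaling factor per map, no balancing, LOIC values, insulation windows of 200 kb, a margin of 25 kb, a 2-fold threshold and no minimum of read pairs. Gene positions came from GENCODE on mm9, where *Slf2*, *Twnk* and *Oga* are named *Fam178a*, *Peo1* and *Mgea5*.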

Additional observations from a re-analysis of the deposited data

How the results depend on the processing

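No paired analysis was possible because each deposited map joins all libraries of its genotype, and for the same reason leaving out replicates was not possible. Values are given for the start bin first and the upstream bin second. Contact ratios with the *Lbx1* domain in unbalanced read pairs were 3.13 and 3.13 (*Dup*), 5.45 and 1.69 (*Inv1*), 1.60 for the start bin (*Inv2*), 2.51 and 2.51 (heterozygous *Dup*) and 3.23 and 1.23 (heterozygous *Inv1*). LOIC maps as deposited gave 2.99 and 3.13 (*Dup*) and 2.14 and 2.18 (heterozygous *Dup*). A single factor per map gave 3.73 and 1.97 (*Inv1*), 2.598 and 1.57 (heterozygous *Inv1*) and 1.497 for the upstream bin (*Inv2*). Leaving out the bin at the *Inv1* joint, chosen after seeing the data, gave 2.81 and 1.62 (*Inv1*) and 1.79 and 1.27 (heterozygous *Inv1*). All of these stayed above 1, and insulation windows of 200 kb moved none of the 10 ratios beyond its interval. Directions at gene starts turned only with the balancing. In unbalanced read pairs the *Fgf8* ratios in *Dup* were 1.34 and 1.36, *Oga* in *Dup* 1.16 (start bin), and for the start bin *Lbx1* 1.38 (*Inv1*) and 1.28 (heterozygous *Inv1*) and *Poll* and *Dpcd* 1.18 (*Inv1*) and 1.11 (heterozygous *Inv1*). In LOIC maps *Fgf8* in *Dup* was 1.14 and 1.22, *Oga* in *Dup* 1.30 (start bin) and *Fgf8* in heterozygous *Dup* 1.07 (start bin). Wild-type shares with 25 kb left out around the viewpoint were 20.8% and 20.4% in the *Lbx1* domain and 42.0% and 42.7% in the *Fgf8* domain, and the unbalanced *Lbx1* share of the upstream bin was 15.8%. Bin pairs past 2-fold numbered 32 and 35 (*Dup*), 84 and 35 (*Inv1*), 47 and 37 (*Inv2*), 11 and 24 (heterozygous *Dup*) and 31 and 18 (heterozygous *Inv1*). Without a minimum of read pairs the start bin had 155 (heterozygous *Dup*) and 156 (heterozygous *Inv1*), and with a single factor the upstream bin had 59 (*Dup*), 191 (*Inv1*) and 129 (heterozygous *Inv1*). These counts stand without a share over all bin pairs at the same setting, so they do not place the viewpoint against the map. The cause of the changes between settings was not tested beyond what each step does by construction.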
